A study of Rattus norvegicus with 24 samples.

Results

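Fosb, Ppp1r15a, Dbp and Arntl, a set of activity-induced and circadian clock genes on rat chromosome 1, were followed across the hippocampi of rats bred for high or low locomotor activity in unfamiliar surroundings. The set was given as 5 symbols, to be looked up among the chromosome 1 genes of the study's gene table. Of these, 4 were matched by that table to rows of the count table, which holds 32883 genes, of which 1934 could be given a symbol. Zfp36 was not matched to a row and was not analysed here. The hippocampus was sequenced in 24 adult rats of generation 37, with 6 rats for each combination of line and sex. The lines are the bred High Responder line (bHR) and the bred Low Responder line (bLR). The labels name 12 families, 6 per line, with 1 male and 1 female each, whereas the study's methods describe every rat as coming from a family of its own, so that the pairing by family is uncertain. One bHR female, marked in the labels as failing quality control for low RNA integrity, was left out, so that 23 rats remained (6 bHR males, 5 bHR females, 6 bLR males and 6 bLR females). The labels name no drug and no transgene, and all rats had been through the same tests of locomotion and of the elevated plus maze (EPM). By the labels, males among these 23 were 151 to 165 days old and females 188 to 192 days old, while the study's methods give a younger adult age at sacrifice for its animals, so that the ages are uncertain. Males and females were also dissected on separate days and housed in separate rooms with different light schedules, so that sex, day, room, light schedule and any difference in age cannot be told apart. The time of day at sacrifice is not given in the sources used here. Libraries held 16824899 to 28443049 counted reads (median 22044668). As a check of the tissue, Slc17a7, the glutamate transporter of hippocampal excitatory neurons, lay at 160.3 to 1094 CPM (read counts scaled to a common library size) and the hippocampal GABA receptor subunit Gabra5 at 174.0 to 303.5 CPM. Of the markers of thalamus and other subcortical tissue, the glutamate transporter Slc17a6 lay at 4.13 to 16.0 CPM and the transcription factor Tcf7l2 at 1.26 to 11.6 CPM, with Log2FCs (bLR against bHR) of -0.37 (edgeR FDR = 0.466) and 0.28 (FDR = 0.746), and their part in the line comparison was not tested. Among other markers, the choroid plexus gene Folr1 spread from 2.39 to 55.2 CPM.

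Neurons that fire strongly switch on a rapid first wave of transcription. Fosb encodes an AP-1 transcription factor of that wave, and a shortened form of its protein builds up with repeated stimulation. Zfp36, which was not matched, encodes a protein that speeds the decay of other induced mRNAs. Ppp1r15a (also called Gadd34) encodes the regulatory subunit that brings protein phosphatase 1 to the translation factor eIF2alpha, and it is induced both by activity and by the integrated stress response. The circadian clock is a feedback loop in which Arntl (Bmal1 in current nomenclature) and Clock drive the genes of their own repressors, and those genes are repressed again as the repressor proteins build up. Dbp encodes a transcription factor that is a direct target of Arntl and Clock through E-box sequences and carries the rhythm to output genes. In tissues sampled around the clock, Dbp and Arntl mRNA are known to peak at nearly opposite times of day.

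All 4 genes are protein coding and lie on chromosome 1 (build Rnor6). Fosb (ENSRNOG00000046667) lies at 80214494 to 80221710 on the minus strand. Ppp1r15a (ENSRNOG00000020938) lies at 101511901 to 101514974 on the minus strand, and Dbp (ENSRNOG00000021027) at 101687855 to 101692846 on the plus strand. Arntl (ENSRNOG00000014448) lies at 178039063 to 178137465 on the plus strand. Promoters of all 4 genes were read from RefSeq (build GRCr8), from 250 bases before to 50 bases after the gene start, and searched on both strands for 4 short motifs. These were the E-box CACGTG bound by Arntl and Clock, the cAMP response element TGACGTCA bound by CREB, the ROR element AGTAGGTCA bound by Rora, Rorb and Nr1d1, and the D-box TTATGTAA bound by Dbp. Each motif was found in few of all 33469 promoters searched (E-box 6.42%, cAMP response element 1.83%, ROR element 0.161%, D-box 0.893%). Ppp1r15a held the cAMP response element and Arntl held the ROR element, and no other match was found in these windows. Both matches are shown because they are of the kinds through which activity and the clock are known to act on genes, with the motif in capitals and 30 bases in all, 5' to 3' on the strand of the gene:
Ppp1r15a, GRCr8 chr1:105139644-105139673, minus strand: cgcctctccggTGACGTCAgcatagcgctg
Arntl, GRCr8 chr1:176766300-176766329, plus strand: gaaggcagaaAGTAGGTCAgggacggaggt
The first motif starts 66 bases and the second 18 bases before the start of its gene. A match is a description of the letters only, and the data here do not bear on binding.

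Fosb was weakly detected in every rat, with 6 to 80 reads. Levels are given below as CPM scaled by the trimmed mean of M-values (TMM), and since they are not divided by gene length they are compared between rats and not between genes. In bHR males Fosb ranged from 0.382 to 1.503 CPM (median 0.734), and in bLR males from 0.433 to 1.77 CPM (median 0.841). The 5 bHR females lay at 0.487, 0.506, 1.20, 1.65 and 2.08 CPM, and the bLR females ranged from 0.887 to 2.91 CPM (median 1.19). All 4 subgroups overlapped, and both sexes held rats with several-fold different levels. Over the 23 rats the highest value was 7.60 times the lowest.

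Ppp1r15a differed 4.48-fold between its lowest and its highest rat. It ranged from 3.46 to 9.08 CPM in bHR males (median 7.55) and from 2.81 to 8.41 CPM in bLR males (median 4.77). The bHR females lay at 3.86, 4.55, 6.28, 10.9 and 12.6 CPM, and the bLR females ranged from 3.31 to 11.4 CPM (median 7.56). The subgroups overlapped throughout, and the 3 highest values came from females.

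Dbp was the steadiest of the 4 genes, with a 1.75-fold range. It ranged from 47.1 to 67.2 CPM in bHR males (median 56.2) and from 45.7 to 76.8 CPM in bLR males (median 59.5). The bHR females lay at 45.5, 49.0, 58.7, 74.0 and 77.3 CPM, and the bLR females ranged from 53.6 to 79.9 CPM (median 60.5). Subgroup medians differed by less than the spread of the rats within any subgroup.

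Arntl differed 2.73-fold between rats. It ranged from 10.7 to 28.1 CPM in bHR males (median 15.7) and from 10.3 to 20.0 CPM in bLR males (median 15.0). The bHR females lay at 12.6, 13.2, 16.8, 21.1 and 25.0 CPM, and the bLR females ranged from 14.1 to 20.3 CPM (median 17.8). The bHR rats reached further up than the bLR rats, while the lowest rats of both lines lay close together.

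**Figure D1:**
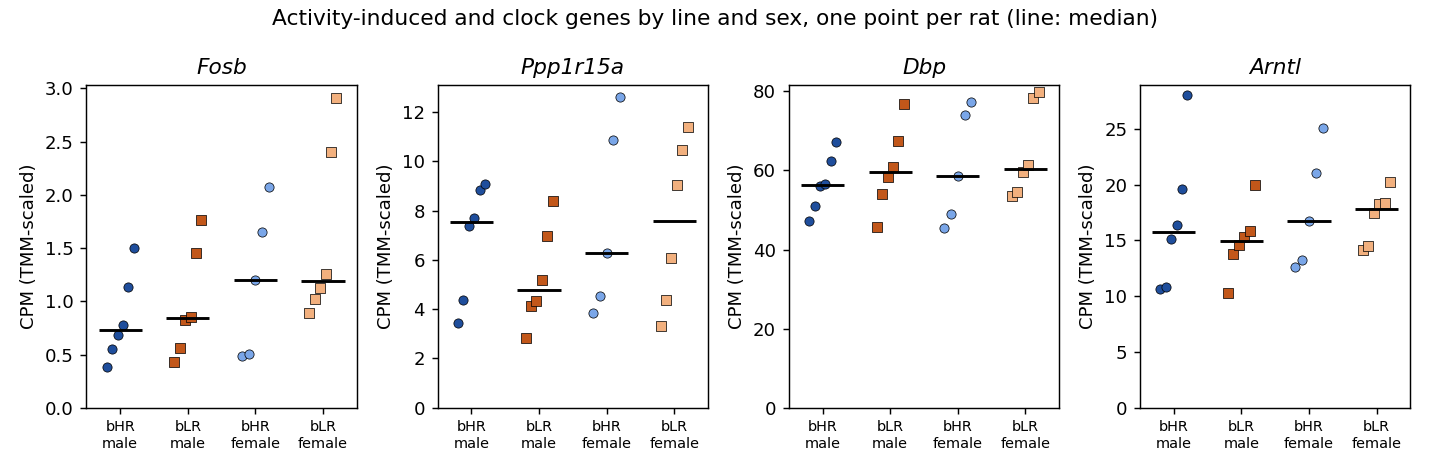
TMM-scaled CPM (vertical axis, from 0) of Fosb, Ppp1r15a, Dbp and Arntl in each of the 23 rats, by line and sex on the horizontal axis. Points are rats and horizontal bars are medians. The 4 subgroups overlap for each gene, and the relative spread is widest for Fosb (7.60-fold) and narrowest for Dbp (1.75-fold).

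The spread was set beside that of all genes tested. The standard deviation (SD) of log2 CPM within subgroups was 0.72 for Fosb, above that of 80.4% of the 13838 genes tested, and 0.65 for Ppp1r15a, above 73.2%. It was 0.38 for Arntl, above 33.1%, and 0.26 for Dbp, above 12.5%. Fosb was also among the least abundant genes tested, at the percentile 5.23 of mean log2 CPM, where counting error adds to the spread. The biological coefficient of variation that edgeR estimated after line, sex, rRNA and intergenic terms was 0.257 for Fosb, 0.199 for Ppp1r15a, 0.156 for Arntl and 0.146 for Dbp. These lay above 82.1%, 57.2%, 24.7% and 17.0% of the genes tested. Mean log2 CPM ran in the opposite order, at the percentiles 33.3 for Ppp1r15a, 53.2 for Arntl and 79.3 for Dbp. The activity-induced genes varied more between rats than the clock genes on both measures, as a description of these libraries. The part of abundance in this order was not tested.

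The first comparison asked whether the selectively bred lines differed in these genes. None of the 4 genes differed between bLRs and bHRs at a false discovery rate (FDR) under 0.10 (edgeR quasi-likelihood test, 12 bLRs against 11 bHRs), where 1.34% of the genes tested did (185 of 13838). Among the activity-induced genes, Fosb had a Log2FC (bLR against bHR) of 0.21 (SE 0.21, FDR = 0.804) and Ppp1r15a one of -0.18 (SE 0.13, FDR = 0.707). Among the clock genes, Dbp had a Log2FC of 0.17 (SE 0.09, FDR = 0.553) and Arntl one of -0.22 (SE 0.10, FDR = 0.429). The 95% interval of the difference ran from -0.22 to 0.64 for Fosb, from -0.46 to 0.09 for Ppp1r15a, from -0.01 to 0.36 for Dbp and from -0.43 to -0.02 for Arntl. Arntl had an unadjusted p of 0.0318 (adjusted p = 0.429, edgeR), the only one of the 4 under 0.05, where 9.96% of the genes tested were. The fitted Arntl difference was -0.06 (SE 0.15) with rRNA as the only technical term and -0.11 (SE 0.16) with neither term, and that of Dbp was 0.11 (SE 0.10) and 0.09 (SE 0.11). With the left-out bHR female kept in, the differences were 0.10 for Dbp and -0.14 for Arntl. The fitted Fosb difference ran from 0.043 (without bHR male replicate 1) to 0.31 (without bLR female replicate 4) when each rat was left out, and was 0.44 with rRNA as the only technical term. That of Ppp1r15a ran from -0.25 to -0.12 when each rat was left out. Within females alone Fosb and Ppp1r15a had Log2FCs of -0.03 and 0.04, opposite in sign to the fit over both sexes.

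The second comparison set females against males, which here also differ in day, room, light schedule and labelled age. None of the 4 genes passed FDR under 0.10, where 0.354% of the genes tested did (49 of 13838). Fosb had the largest fitted difference, a Log2FC (female against male) of 0.37 (SE 0.20, 95% interval -0.04 to 0.79, edgeR FDR = 0.494). Its medians were 1.20 CPM in females and 0.803 CPM in males, and the sexes overlapped widely. Arntl had a Log2FC of 0.12 (SE 0.10, edgeR FDR = 0.643), Ppp1r15a of 0.04 (SE 0.13, FDR = 0.918) and Dbp of 0.03 (SE 0.09, FDR = 0.911). The intervals ran from -0.23 to 0.31 for Ppp1r15a, from -0.15 to 0.21 for Dbp and from -0.08 to 0.31 for Arntl. Without the rRNA and intergenic terms the fitted Ppp1r15a difference was 0.33 (SE 0.25) and the Fosb difference 0.61 (SE 0.30). The hemoglobin gene Hbb, a marker of red blood cells, was lower in females (Log2FC -2.02, SE 0.34, edgeR FDR = 0.00273), and its part in the sex comparison was not tested.

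No gene of the table passed FDR under 0.10 for a line difference that itself differed between the sexes (edgeR; 2.35% of the genes had an unadjusted p under 0.05, and DESeq2 and limma-voom also called 0 genes). For the 4 genes the interaction Log2FC was 0.26 (SE 0.48) for Fosb, 0.27 (SE 0.28) for Ppp1r15a, -0.02 (SE 0.19) for Dbp and 0.12 (SE 0.30) for Arntl. Their unadjusted edgeR p-values ranged from 0.347 for Ppp1r15a to 0.938 for Dbp. With the intergenic term added, the sign turned for Fosb (-0.046), Dbp (0.035) and Arntl (-0.12). With SEs of this size an interaction of up to 1.25 for Fosb and 0.84 for Ppp1r15a lies within the 95% interval.

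**Figure D2:**
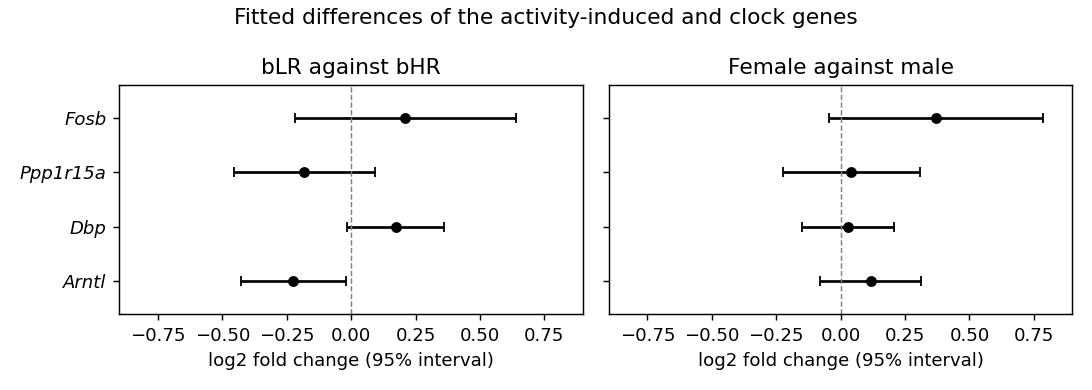
Log2 fold changes of the 4 genes (points) with 95% intervals (bars) from the edgeR fit over 23 rats, bLR against bHR on the left and female against male on the right. The Arntl interval on the left, -0.43 to -0.02, lies below 0 before adjustment for the genes tested, and the other 7 intervals include 0.

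Genes of the same pathways were drawn from 3 lists, of which only the symbols carried by the study's gene tables could be matched. Of 45 activity-induced genes 7 were matched and 6 passed the filter on low counts, and none of the 6 passed FDR under 0.10 in edgeR for line or for sex. The 6 include Fosb and Ppp1r15a themselves. The median Log2FC of the 6 was 0.03 for line and 0.10 for sex, beside -0.00 and -0.03 over all genes tested. For line, Plk2, a kinase that lowers synaptic strength after long activity, had a Log2FC of 0.14 (SE 0.10, edgeR FDR = 0.699). Homer1, whose short form is induced by activity and loosens the postsynaptic scaffold, had a Log2FC of -0.12 for line (SE 0.09, FDR = 0.723) and of -0.08 for sex (SE 0.09, FDR = 0.761). Dusp5, a phosphatase that acts on nuclear ERK, had a Log2FC of 0.21 for sex (SE 0.13, FDR = 0.538). Npas4, a neuron-specific activity-induced transcription factor, had 3 to 81 reads and did not pass the filter, which used CPM by library size before TMM scaling. On the TMM scale used for levels, it ranged from 0.136 to 1.02 CPM in bHR males, from 0.316 to 0.949 CPM in bLR males and from 0.271 to 1.02 CPM in bLR females. The bHR females lay at 0.577, 0.841, 1.26, 2.34 and 3.72 CPM, so that the 3 highest values of the data set came from that subgroup, and the bHR female with the highest Npas4 (3.72 CPM) had the third highest Fosb of the 5.

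Of 24 clock genes only Arntl, Dbp and Rorb were matched, and the Per, Cry and Nr1d genes were not analysed here. Rorb, a nuclear receptor of the family that activates Arntl through ROR elements, ranged from 1.88 to 4.33 CPM and had a Log2FC of -0.11 for line (SE 0.13, edgeR FDR = 0.847) and of -0.01 for sex (SE 0.13, FDR = 0.975). The median Log2FC of the 3 clock genes was -0.11 for line and 0.03 for sex, and 0 of 3 passed FDR under 0.10 in either comparison in edgeR, with 1 of 3 (Arntl, line) at an unadjusted p under 0.05. Of 14 integrated stress response genes 3 were matched. Cebpg, a partner of the stress response factor Atf4, had a Log2FC of -0.10 for line (SE 0.08, FDR = 0.725) and of -0.14 for sex (SE 0.07, FDR = 0.485). Atf5, a stress-induced transcription factor, had a Log2FC of 0.11 for line (SE 0.13, FDR = 0.844) and of -0.18 for sex (SE 0.12, FDR = 0.581). With Ppp1r15a, the median of the 3 was -0.10 for line and -0.14 for sex, and 0 of 3 passed FDR under 0.10, or an unadjusted p under 0.05, in edgeR.

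Next, the relation of the clock pair across rats was examined. The question was whether rats high in Dbp were low in Arntl. Each sex was dissected on a day of its own and the time of day at sacrifice is not known. The values therefore cannot place either gene in its daily cycle, and a weak r does not bear on their phase relation. After the mean of each subgroup was subtracted, Dbp and Arntl had a Pearson's r of -0.11 over the 23 rats (p = 0.615) and a Spearman's rho of -0.01 (p = 0.973, two-sided permutation tests with 100000 permutations within subgroups). Leaving out the 2 rats whose Dbp lay farthest from the median gave r = -0.23. Within males, dissected on one day, r was -0.21 (n = 12, permutation p = 0.487), and within females r was -0.01 (n = 11, permutation p = 0.969). Of the subgroups with 6 rats, bHR males had r = -0.66 (exact permutation p = 0.147), bLR females r = -0.36 (exact p = 0.475) and bLR males r = 0.29 (exact p = 0.626). The log2 ratio of Dbp to Arntl ranged from 0.75 to 2.54 in bHR males (median 1.97) and from 1.603 to 2.49 in bLR males (median 2.01). It ranged from 1.55 to 2.42 in bLR females (median 1.83), and the 5 bHR females lay between 1.23 and 2.54 (median 1.87), so that no subgroup stood apart.

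The value depended on the scaling. With CPM scaled by library size alone, the same rats gave r = 0.64 for Dbp and Arntl (rho = 0.66, permutation p = 0.00184), a positive relation in place of the weak negative one. The TMM factors that separate the scalings ran from 0.689 to 1.35 across rats. In log2 and relative to the subgroup mean, they had an r of -0.85 with the fraction of rRNA reads and of 0.76 with RNA concentration. With the TMM-scaled genes themselves they had an r of 0.95 for Ppp1r15a, 0.78 for Fosb, 0.73 for Arntl and 0.40 for Dbp. After scaling by library size alone these values were 0.97, 0.88, 0.91 and 0.86. Values scaled by library size alone still carry the TMM factor, which all genes of a rat share. These values and the r of 0.64 are therefore positive in part by construction.

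**Figure D3:**
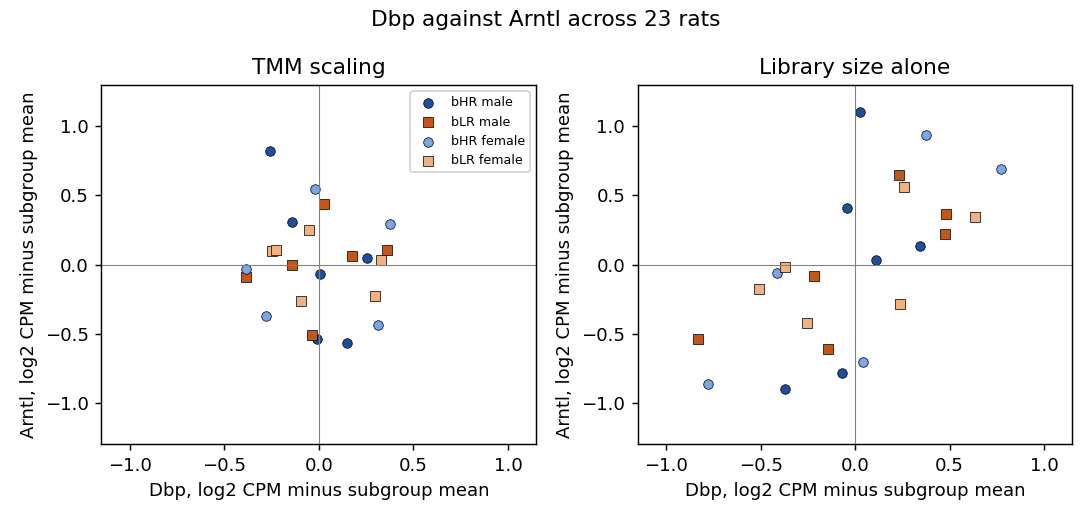
Arntl (vertical) against Dbp (horizontal), both as log2 CPM minus the subgroup mean, in the 23 rats, after TMM scaling (left) and after scaling by library size alone (right). Points are rats, with color and shape for line and sex. On the left the points show little slope (r = -0.11) and on the right they rise together (r = 0.64).

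The other 5 of the 6 pairs were positively related under TMM. Fosb and Ppp1r15a, both activity-induced, had r = 0.71 (rho = 0.70, p = 0.001, adjusted p = 0.006 over the 6 pairs, permutation test). Ppp1r15a and Arntl had r = 0.64 (rho = 0.63, adjusted permutation p = 0.00621), and Fosb and Arntl had r = 0.57 (rho = 0.54, adjusted permutation p = 0.018). Fosb and Dbp had r = 0.48 (rho = 0.55, adjusted permutation p = 0.0689), and Ppp1r15a and Dbp had r = 0.44 (rho = 0.45, adjusted permutation p = 0.0775). Within males and within females Fosb and Ppp1r15a gave the same value, r = 0.71 (n = 12 and n = 11, permutation p = 0.0162 and 0.0295). Ppp1r15a and Arntl gave 0.69 in males and 0.62 in females, and Fosb and Arntl gave 0.59 and 0.58. The pairs with Dbp were at 0.26 in males and 0.64 in females for Fosb and at 0.27 and 0.55 for Ppp1r15a, and the difference between the sexes was not tested. Without the 2 rats farthest from the median of the first gene, the 5 values ran from 0.34 (Fosb and Dbp, permutation p = 0.175) to 0.67 (Ppp1r15a and Arntl). With library size alone the 5 ran from 0.80 (Fosb and Arntl) to 0.86 (Ppp1r15a and Arntl), and the pairs with Dbp were at 0.82 for Fosb and 0.86 for Ppp1r15a.

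These relations were not particular to the set. Of the 13837 other genes tested, 67.5% had an r of at least 0.5 in size with Fosb, 69.7% with Ppp1r15a and 65.1% with Arntl, but 13.0% with Dbp. Among all genes ordered by r with Fosb from the highest, Ppp1r15a came at position 2393, and with Dbp, Arntl came at position 8101. The gene with the highest r with Ppp1r15a was Fen1, a DNA repair nuclease (r = 0.97), and Nars2, a mitochondrial tRNA synthetase, was the second lowest with Fosb (r = -0.90). Among the 3 lowest were Slc1a3, the astrocytic glutamate transporter, for Dbp (r = -0.74), and Caly, a vesicle protein of neurons, for Arntl (r = -0.93). The gene with the highest r with Fosb (ENSRNOG00000014666, r = 0.90) and that with Arntl (ENSRNOG00000007304, r = 0.96) have no symbol in the gene tables used, nor have the other genes at these extremes except the unnamed locus LOC100360449 (r = -0.95 with Ppp1r15a). For Dbp the highest r was 0.85. These values describe 23 libraries that differ in RNA quality, and the genes are not independent of each other.

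RNA metrics were then set beside the 4 genes, since the study used the fractions of rRNA and intergenic reads as covariates. Of 12 relations with the rRNA fraction, the intergenic fraction and RNA concentration, 10 had an adjusted p under 0.10. The share of all genes with such a p was not computed, and the sizes of r over all genes are given below. The rRNA fraction, 1.23% to 3.98% of reads, was negatively related to Ppp1r15a (r = -0.86, rho = -0.89, adjusted permutation p = 6e-05), Fosb (r = -0.66, adjusted permutation p = 0.00518) and Dbp (r = -0.60, adjusted permutation p = 0.0184). For Arntl the value was -0.37 (adjusted permutation p = 0.0807). The 3 rats with the most rRNA relative to their subgroup (1 bLR male, 1 bLR female and 1 bHR female) each had the lowest Ppp1r15a of their subgroup. Within males and within females Ppp1r15a gave -0.73 and -0.94, and Fosb gave -0.58 and -0.72.

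Arntl went with another metric. Its r with the intergenic fraction, 8.74% to 13.5% of reads, was 0.78 (rho = 0.70, adjusted permutation p = 0.0002), at 0.87 within males and 0.55 within females, and 0.64 without the 2 rats farthest from the median. Fosb had r = 0.52 with the intergenic fraction (adjusted permutation p = 0.0184), and r = 0.39 when the 2 farthest rats were left out (permutation p = 0.0763). Ppp1r15a had r = 0.28 (adjusted permutation p = 0.204) and Dbp r = -0.29 (adjusted permutation p = 0.163). RNA concentration, in the unit of the labels, was positively related to all 4 genes, with r = 0.75 for Fosb, 0.73 for Ppp1r15a, 0.52 for Dbp and 0.48 for Arntl (adjusted permutation p from 6e-05 to 0.0447). For Dbp, leaving out the 2 rats of most extreme concentration gave 0.29 (permutation p = 0.228).

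**Figure D4:**
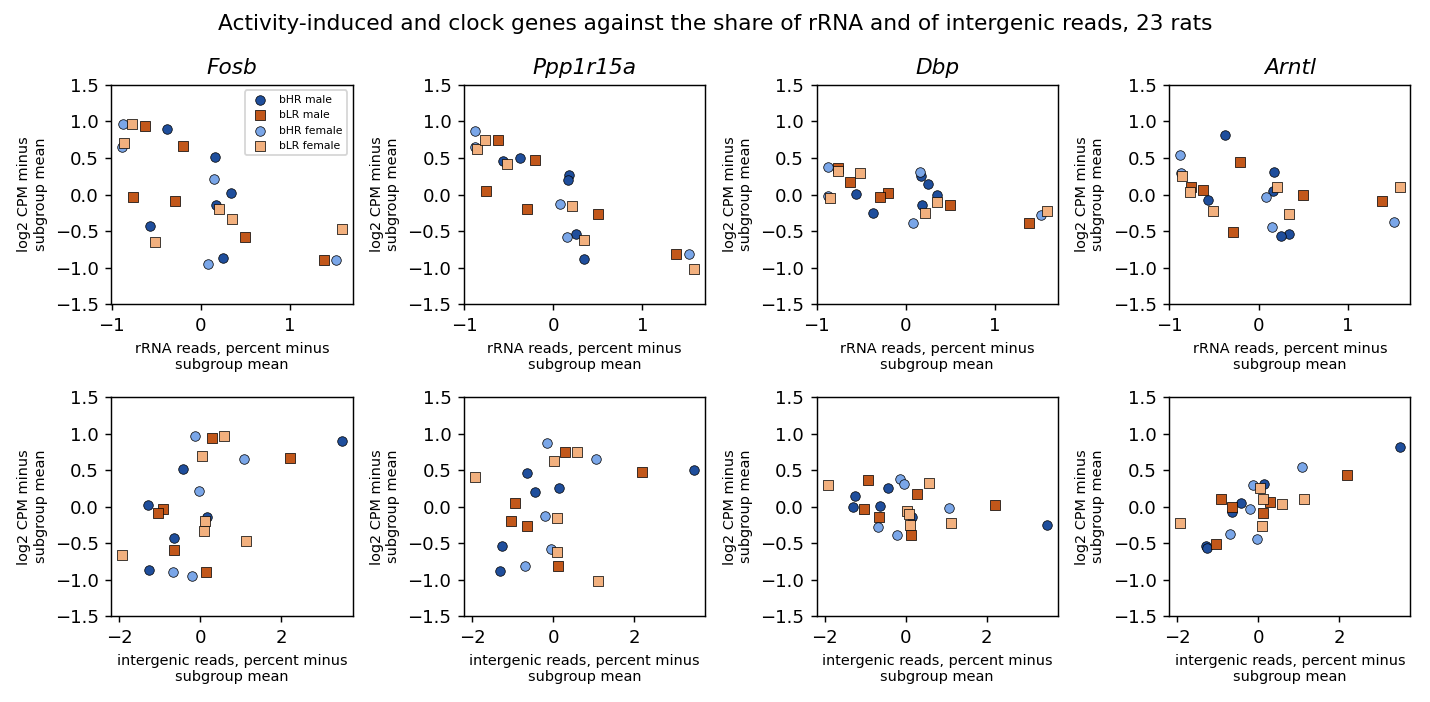
Log2 CPM minus the subgroup mean (vertical axis) of each gene against the percentage of rRNA reads (top row) and of intergenic reads (bottom row), each minus its subgroup mean, in the 23 rats. Ppp1r15a falls most closely with rRNA reads (r = -0.86) and Arntl rises most closely with intergenic reads (r = 0.78), while Dbp has the narrowest vertical spread.

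Such relations were common in the data set. The median size of r with the rRNA fraction was 0.62 over all genes tested. A larger one than that of Ppp1r15a was held by 7.18% of genes, than Fosb by 44.6%, than Dbp by 52.9% and than Arntl by 75.0%. With the intergenic fraction the median size was 0.47. The shares of genes with a larger value were 7.04% for Arntl, 41.7% for Fosb, 71.9% for Dbp and 73.3% for Ppp1r15a. With RNA concentration the median size was 0.62, and the shares were 18.4% for Fosb, 24.3% for Ppp1r15a, 62.6% for Dbp and 66.5% for Arntl. When line, sex, rRNA and intergenic fractions were all removed, Fosb and Ppp1r15a had r = 0.12 (adjusted permutation p = 0.784), in place of 0.71, and Fosb and Arntl had r = -0.11 (adjusted permutation p = 0.784). Ppp1r15a and Dbp had r = 0.008 (adjusted permutation p = 0.975), in place of 0.44, and Dbp and Arntl had r = -0.22 (permutation p = 0.365). Ppp1r15a and Arntl kept r = 0.56 (adjusted permutation p = 0.0413) and Fosb and Dbp r = 0.57 (adjusted permutation p = 0.0413). Without the 2 rats farthest from the median of the first gene these were 0.40 (permutation p = 0.0816) and 0.34 (permutation p = 0.133). Rank correlations of the residuals had adjusted permutation p-values of 0.16 for Ppp1r15a and Arntl and 0.18 for Fosb and Dbp. The part that RNA quality plays in the levels was not tested.

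Finally, the genes were set beside each rat's own behavior within each line, because the lines do not overlap in locomotor score (LocoScore, labelled totals of 1533 to 2949 counts in bHRs and 23 to 101 in bLRs). In 4 of the 23 rats, 3 bHR females and 1 bLR male, the labelled total is not equal to its parts, lateral and rearing movements, added together. By the sums the bLRs ranged from 23 to 69. By the study's methods the locomotor test was run at about 2 months of age and the EPM after it. The tissue was taken later, so that expression and behavior were not measured together. Total LocoScore, the share of EPM time spent on open arms, distance traveled in the EPM and time immobile in the EPM gave 32 relations, after the mean of each sex was subtracted. In bHRs r ran from -0.62 to 0.55 over 16 relations. The smallest unadjusted p of the 16 Pearson values was 0.0418, for Arntl and time immobile (r = -0.62, n = 11, adjusted permutation p = 0.335), and that of the rank values was 0.0328, for Ppp1r15a and time immobile (rho = -0.72, adjusted permutation p = 0.344). Over all genes tested the median size of r with time immobile in bHRs was 0.67. A larger one than that of Arntl was held by 59.6% of genes, and than that of Ppp1r15a by 59.3%. After the rRNA and intergenic fractions were removed, r with time immobile was -0.19 for Arntl (permutation p = 0.607) and 0.01 for Ppp1r15a (permutation p = 0.972), and time immobile itself had r = 0.70 with the rRNA fraction in bHRs. Of the 32 relations in both lines, 9 changed sign under that step. Distance gave values that moved with the rats included. Without the 2 rats whose distance was most extreme, Fosb had r = 0.74 (permutation p = 0.0118) in place of 0.14, Arntl had r = 0.77 (permutation p = 0.0321) in place of 0.55, and Dbp had r = -0.14 (permutation p = 0.694) in place of -0.53. Within bHR males Dbp and distance had r = -0.91 (n = 6, exact permutation p = 0.0125, not adjusted). No value is given for the 5 bHR females alone, since correlations are given here over at least 6 rats. In bLRs Fosb, Ppp1r15a and Dbp had no r larger in size than 0.48 (n = 12, unadjusted permutation p of at least 0.146).

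Arntl in bLRs gave the only 2 relations with an adjusted p under 0.10. Rats with more Arntl traveled further in the EPM (r = 0.83, rho = 0.82, p = 0.00496, adjusted p = 0.0816, permutation test) and were immobile for less time (r = -0.79, rho = -0.74, p = 0.0051, adjusted p = 0.0816, permutation test). Over all 13838 genes tested the median size of r in bLRs was 0.31 for distance and 0.39 for time immobile, and 0.0867% and 1.76% of genes had a larger one than Arntl. By rank the adjusted permutation p was 0.0358 for distance and 0.217 for time immobile. With the 2 rats left out whose behavior lay farthest from the median, r was 0.51 for distance (permutation p = 0.0789) and -0.46 for time immobile (permutation p = 0.159), so that both relations rested in part on those rats. The bLR males covered 402.4 to 4126 cm, and the male with 4126 cm had the highest Arntl of the bLR males. Within bLR males r was 0.94 for distance (n = 6, exact permutation p = 0.0194) and -0.94 for time immobile (exact permutation p = 0.00139). Within bLR females the values were 0.59 (n = 6, exact permutation p = 0.207) and -0.35 (exact permutation p = 0.515). With LocoScore Arntl had r = -0.71 in bLRs (permutation p = 0.0258, adjusted p = 0.275). That value was -0.43 without 1 bLR male (family L09), whose labelled total of 101 differs from its parts (36 lateral and 30 rearing counts). It was -0.55 (permutation p = 0.0695) with the sum of the parts in all rats, and with the labelled totals it was -0.21 when the 2 rats with the most extreme LocoScore were left out (permutation p = 0.567). The intergenic fraction moved with the same behaviors in bLRs, with r = 0.65 for distance and -0.63 for time immobile. After the rRNA and intergenic fractions were removed as well, Arntl had r = 0.66 for distance (adjusted permutation p = 0.225) and -0.56 for time immobile (adjusted permutation p = 0.449).

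Fosb in bLRs changed sign under the same step. Its r with EPM distance was 0.32 (adjusted permutation p = 0.65) before and -0.86 (rho = -0.91, adjusted permutation p = 0.0278) after the rRNA and intergenic fractions were removed, and -0.87 without the 2 rats farthest from the median. That fit takes 3 terms from 12 rats, and the permutation did not count the terms taken, so that its p tends to be too small. Fosb rested on 6 to 80 reads in these rats.

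**Figure D5:**
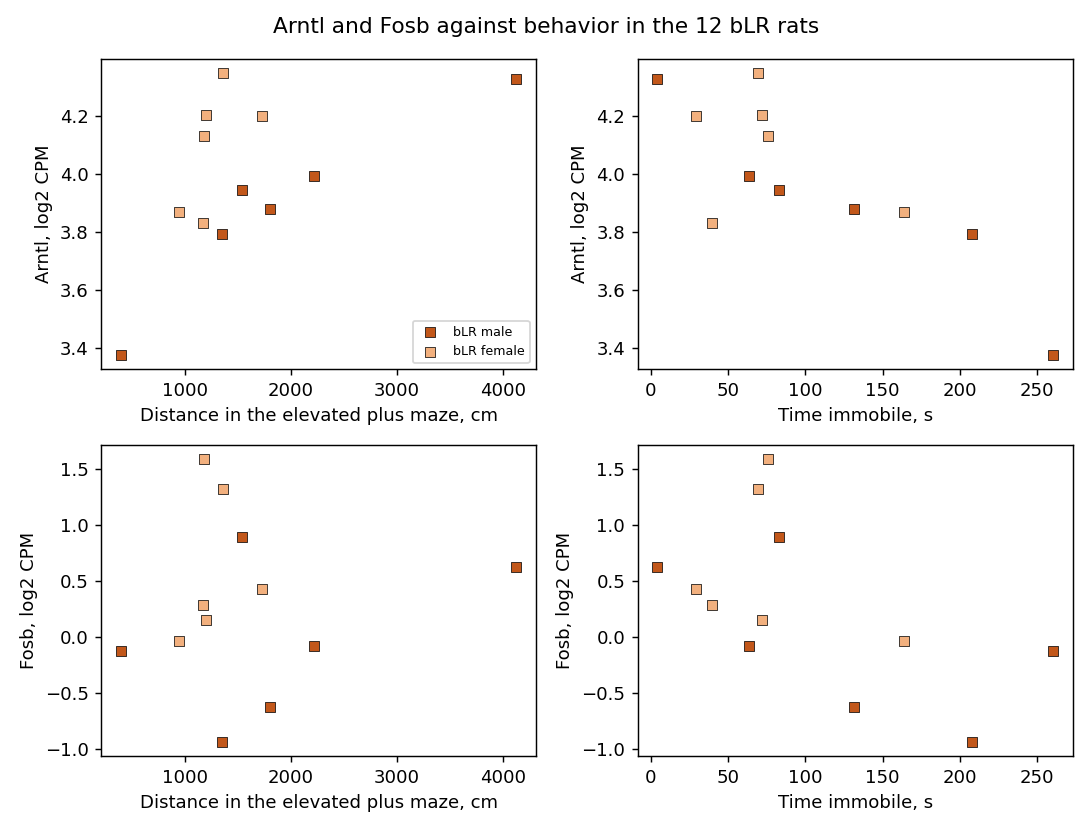
Log2 CPM of Arntl (top row) and Fosb (bottom row) against distance traveled in the EPM in cm (left) and time immobile in s (right) in the 12 bLR rats, with males dark and females light. Arntl rises with distance (r = 0.83 after sex means are removed), with 1 male at 4126 cm far to the right, and Fosb shows a weaker slope (r = 0.32).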

How the data were processed

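Hippocampal RNA of 24 rats was sequenced from poly-A libraries as paired ends. Per the labels and the study's methods, the authors used Rnor6 as the genome, STAR (2.7.3a) for alignment with uniquely placed reads only, and Subread (2.0.0) for strand-specific counting over Ensembl genes. The deposited table holds raw read counts per gene without normalization.

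Symbols came from the study's gene tables, which named 1934 of the 32883 genes. The set of genes, the pathway lists and the marker lists were chosen with earlier results of these data known. Genes reaching 1 CPM by library size in 6 or more of the 23 rats (13838 genes) were fitted with edgeR 4.0.16 (R 4.3.3, TMM, quasi-likelihood test) on line, sex, rRNA fraction and intergenic fraction. The interaction fit had line, sex, their interaction and the rRNA fraction. SEs were derived from the F statistic, and FDRs are Benjamini-Hochberg over all genes tested. The labels name families shared by a male and a female, whereas the study's methods describe separate families. With a consensus correlation of 0.00852 within families (limma-voom), family entered only as an alternative. Correlations used log2 CPM (prior count 2) in Python 3.11.15 with two-sided tests of 100000 permutations within subgroups or within sex (smallest possible p 1e-05), exact for groups of 6, and were adjusted over 6 pairs, 12 RNA metric relations or 32 behavior relations. DESeq2 1.42.0 and limma 3.58.1 served as alternatives. Other alternatives were other scalings, filters and covariates, all 24 rats, each sex alone, and each rat left out. Permutation p-values of residuals did not count the terms removed and tend to be too small. The fitting and correlation steps were tested on simulated data. Genes of the lists are named where they had the 3 smallest unadjusted p-values of a list and comparison, and likeness is given by the 3 highest and 3 lowest r. All intervals treat each rat as a separate sample.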

Additional observations from a re-analysis of the deposited data

Results flagged for a closer look

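Within subgroups of 5 or 6 rats, 1 value in each of 4 cases lay far from the rest, among 52 gene and subgroup combinations examined, and chance alone marks about 1 in 20 groups. Npas4 in 1 bLR male lay at 0.949 CPM, the highest of its subgroup. Dusp5 in 1 bLR female lay at 8.50 CPM. Plk2 in 1 bHR male lay at 184.6 CPM, and Rorb in another bHR male lay at 4.33 CPM. No value of Fosb, Ppp1r15a, Dbp or Arntl, nor the Dbp to Arntl ratio, stood apart in this way.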

How the results depend on the processing

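None of the 4 genes passed FDR under 0.10 for line, sex or their interaction under any alternative run, and the lowest adjusted p was 0.218 (Arntl, line, with 1 rat left out). The number of genes called over the table moved more. For line it was 185, against 329 with DESeq2, 294 with all 24 rats, 56 without rRNA and intergenic terms, 78 in males, 3 in females, and 97 (without bHR male replicate 1) to 436 (without bHR female replicate 6) with each rat left out. For sex it was 49, against 157 with DESeq2, 21 with library size alone, 13 without rRNA and intergenic terms, 18 with rRNA only, 19 with the replicate block by family, and 18 (without bHR male replicate 3) to 159 (without bLR male replicate 3) with each rat left out. Signs turned in females alone for line (Fosb -0.026, Ppp1r15a 0.035), under the family block for sex (Ppp1r15a -0.0099, Dbp -0.035), and with the intergenic term added for the interaction (Fosb -0.046, Dbp 0.035, Arntl -0.12). Leaving out each rat gave 0.043 to 0.31 for Fosb and -0.25 to -0.12 for Ppp1r15a by line. By sex it gave -0.017 to 0.14 for Ppp1r15a, -0.0093 to 0.11 for Dbp and 0.086 to 0.20 for Arntl. For the r of Dbp and Arntl it gave -0.21 to 0.023. That r was 0.64 with library size alone. After rRNA and intergenic fractions were removed, 2 of 6 pairs instead of 5 passed, with Fosb and Arntl at -0.11, and 1 behavior relation instead of 2, with Fosb and EPM distance in bLRs at -0.86. The pairs with library size alone and without centring, and LocoScore as the sum of its parts, were chosen after seeing the data. The family block changed no call on the 4 genes. Fosb could not be tested in males alone because of the filter. The causes were not tested. Fosb rested on 6 to 80 reads per rat.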

Other observations

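The bHR female left out for low RNA integrity lay within the range of the other 23 rats for all 4 genes, at 1.22 CPM for Fosb, 5.77 CPM for Ppp1r15a, 61.3 CPM for Dbp and 17.0 CPM for Arntl, scaled over 24 rats. With it kept in the fit, the line differences of Dbp and Arntl were 0.10 and -0.14, in place of 0.17 and -0.22.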
